A study of Mus musculus with 6 samples.

Results

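The synaptic vesicle and release machinery is described here as 46 genes, listed by name and matched by symbol to the Ensembl identifiers of the deposited table, among 56941 identifiers and 19354 genes tested. The libraries are poly(A) RNA sequencing of ventral hippocampus from 6 mice, 3 with the label NEGR1_overexpression and 3 with the label NEGR1_control. NEGR1 is an adhesion molecule of the neuronal surface, and the series title links its overexpression to anxiety- or depression-like behaviour and to synaptic dysfunction. How NEGR1 was raised, in which cells and for how long, and the strain, sex and age of the mice are not given in the labels or design text. No treatment beyond the NEGR1 overexpression is labelled. All 46 genes passed the filter on low counts, with a mean over the 6 libraries of 5.56 to 1926 CPM (read counts relative to library size, scaled with TMM factors that correct for library composition). The smallest count of any of them in any library was 138.

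At a nerve terminal, transmitter is loaded into vesicles, which are held near the membrane by synapsins and Rab3 proteins and brought to release sites by the scaffold of the active zone. SNARE proteins on the vesicle and on the plasma membrane then zip together, and synaptotagmins trigger fusion when calcium enters. NSF and its adaptors pull spent SNARE complexes apart, and dynamin, amphiphysins and synaptojanin retrieve the membrane for a new cycle. In the hippocampus most of these terminals belong to glutamatergic neurons that carry the transporter VGLUT1.

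Total counts per library were 30726110 to 38108394. Negr1 itself stood at 185, 199 and 195 CPM in overexpression replicates 1 to 3 and at 181, 168 and 180 CPM in control replicates 1 to 3. The groups did not overlap, and Negr1 did not pass edgeR's quasi-likelihood test (fold 1.09, 95% interval 1.01 to 1.19, adjusted p = 0.488). Choroid plexus markers stood apart in overexpression replicate 1, with a summed level of 1208 CPM against 133 to 209 CPM in the other 5 libraries. Pan-neuronal markers summed to 4533 to 4873 CPM in overexpression and 4749 to 4929 CPM in control libraries. Dentate granule cell markers summed to 355 CPM in overexpression replicate 1, against 550 to 597 CPM in the other overexpression libraries and 410 to 440 CPM in control libraries. Ventral hippocampus is a mixed tissue, so fewer cells of a type and less RNA per cell cannot be told apart in any value below.

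The promoters of 4 genes that recur below are shown so that the composition of this gene family can be seen. Each is the 250 bases before the RefSeq start site on GRCm38.p6, written 5′ to 3′ on the gene's own strand. Capitals mark the GC box GGGCGG, the cAMP response element TGACGTCA and TTCAGCACC, the left part of the RE1 element through which the repressor REST keeps neuronal genes off outside neurons. Each was searched on both strands. Syp encodes the vesicle protein synaptophysin (chrX:7638330-7638579, plus strand), Syn1 the vesicle-tethering phosphoprotein synapsin I (chrX:20920919-20921168, minus strand), and Rab3a and Rab3c are sister GTPases of the vesicle surface (chr8:70754453-70754702, plus strand, and chr13:110280207-110280456, minus strand).
Syp: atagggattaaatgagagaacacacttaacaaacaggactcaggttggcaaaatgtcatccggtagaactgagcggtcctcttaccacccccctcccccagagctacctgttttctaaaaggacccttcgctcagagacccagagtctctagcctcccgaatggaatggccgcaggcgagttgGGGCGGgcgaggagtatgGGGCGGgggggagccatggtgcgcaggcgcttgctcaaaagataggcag
Syn1: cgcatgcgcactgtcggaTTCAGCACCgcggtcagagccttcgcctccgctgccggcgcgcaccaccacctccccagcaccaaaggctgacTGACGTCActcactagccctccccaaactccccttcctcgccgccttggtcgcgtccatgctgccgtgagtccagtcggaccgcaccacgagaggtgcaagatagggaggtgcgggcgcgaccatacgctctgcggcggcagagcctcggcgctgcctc
Rab3a: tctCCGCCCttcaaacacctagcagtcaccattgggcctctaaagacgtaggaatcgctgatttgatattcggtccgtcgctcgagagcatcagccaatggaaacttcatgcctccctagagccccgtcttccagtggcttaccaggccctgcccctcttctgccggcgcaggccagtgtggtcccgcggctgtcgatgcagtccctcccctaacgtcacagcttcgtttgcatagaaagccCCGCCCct
Rab3c: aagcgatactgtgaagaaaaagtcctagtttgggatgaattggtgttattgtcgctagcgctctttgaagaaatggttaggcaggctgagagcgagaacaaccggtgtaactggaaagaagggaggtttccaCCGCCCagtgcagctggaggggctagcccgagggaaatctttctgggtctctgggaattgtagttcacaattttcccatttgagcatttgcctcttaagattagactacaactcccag

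The Syn1 window holds the RE1 part and the cAMP response element, and its bases are 68.0% G or C, against 56.4% for Syp, 58.8% for Rab3a (the first of 2 windows in the table) and 47.6% for Rab3c. Of the 46 genes, 37 had a RefSeq window, with a median of 61.2% G or C against 55.2% over 17492 protein-coding genes. The GC box was found in 25 of the 37 (67.6%), against 42.7% of protein-coding genes. TTCAGCACC was found in Syn1 and Ppfia3 (5.41% of the 37, against 0.303% of protein-coding genes), and the cAMP response element in Syn1 alone of the 37 (2.7%, against 2.01%). These matches describe letters in a window and say nothing about binding.

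In the control hippocampus the levels per length spanned from the core fusion and retrieval proteins to minor paralogues. On the scale of CPM per kilobase of annotated exons, the highest were Snap25, the plasma membrane SNARE, at 292 ± 15.5 (SD, n = 3), and Cplx2, a complexin that clamps SNARE complexes, at 290.0 ± 14.8. Dnm1, the neuronal dynamin, at 259 ± 12.7 and Slc17a7, which encodes VGLUT1, at 258 ± 12.3 followed. Within each of these 2 pairs the levels did not differ beyond their spread. Cplx1 (224 ± 6.50), Vamp2 (210.5 ± 4.26) and Syt1 (208 ± 14.2) came next, then Syn1, Rab3a and Syp between 169 and 172. At the low end were Syn3 (0.889 ± 0.0587), Cplx3 (1.95 ± 0.116), Doc2a (2.36 ± 0.130), Sv2c (3.12 ± 0.292) and Slc17a6 (3.50 ± 0.343), which encodes VGLUT2, the transporter of thalamic and other subcortical neurons. Across the 46 genes the rank of a level per kilobase moved by at most 4 places between the groups.

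None of the 46 genes passed the test between the groups. With an adjusted p under 0.05 in edgeR's quasi-likelihood test over all genes, 0 of 46 were called, where 0.0465% of tested genes were called, and the smallest adjusted p of the 46 was 0.340, for Syp. A fold below 1 (overexpression over control) was found for 36 of 46 (78.3%, against 49.6% of all tested genes), and the median log2 fold change was -0.053 against 0.0015. The lean was not particular to the 46. Of 87 other genes of vesicle release and recycling, described below, 58 had a fold below 1 (median -0.0395). Of 12 pan-neuronal markers 9 did (median -0.018). With libraries scaled to these 12 pan-neuronal genes in place of all genes, 26 of the 46 had a fold below 1 (56.5%, against 39.0% of all tested genes). In the main fit the folds of the 46 ran from 0.862 to 1.09. For 38 of the 46 the 95% interval of the fold lay inside 0.8 to 1.25. The 8 genes with wider intervals were Sv2c, Syn3, Syt2, Cplx3, Rab3b, Unc13c, Rims3 and Slc17a6. At an unadjusted p under 0.05 there were 8 of 46 (17.4%, against 9.24% of tested genes), 6 lower (all tested genes 4.60%) and 2 higher (all tested genes 4.64%). Without overexpression replicate 3 there were 5 and without control replicate 1 there were 4. The share of all tested genes in those fits is not given here, so these counts have no baseline. DESeq2's Wald test and limma-voom with sample weights also called 0 of the 46.

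**Figure D1:**
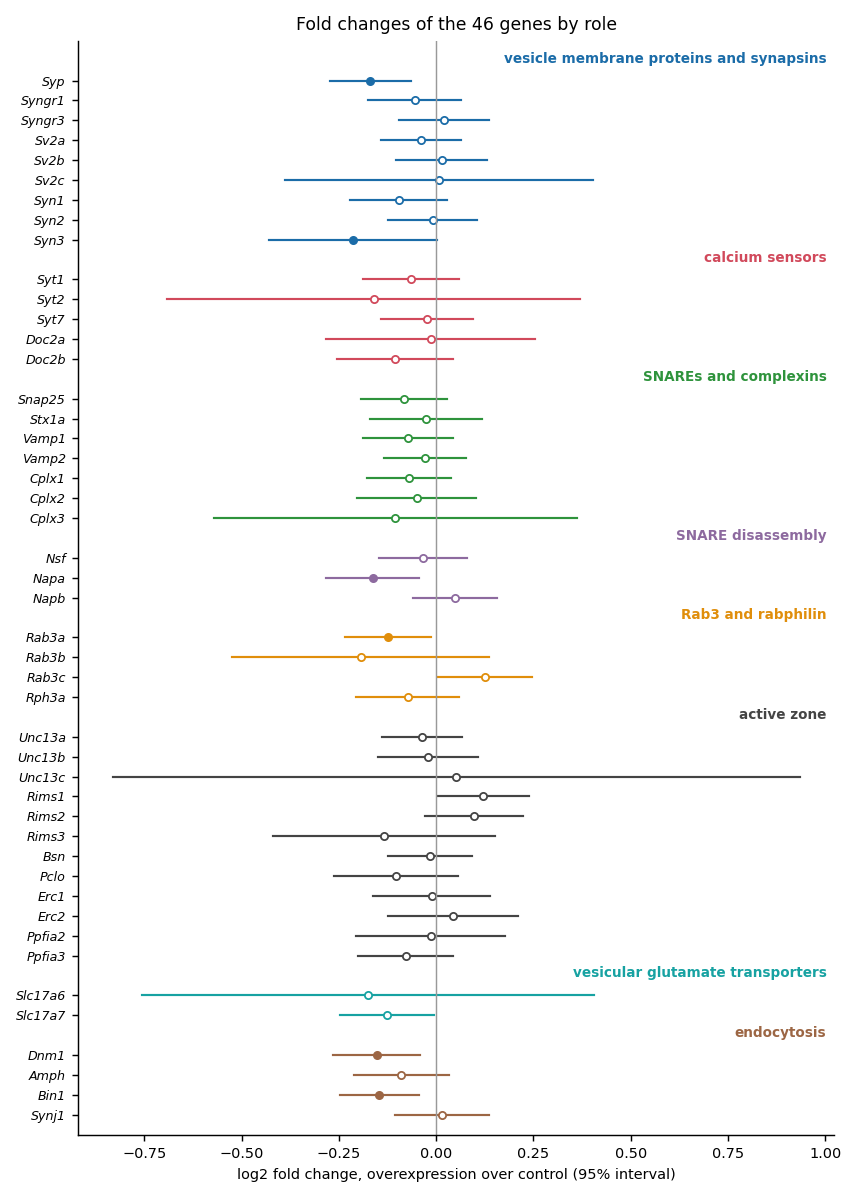
Log2 fold change (horizontal axis, overexpression over control) of each of the 46 genes with its 95% interval from edgeR, grouped by role; filled points are genes whose 3 overexpression libraries lay outside the range of the 3 control libraries. The 6 filled points are below 0, and the widest interval is that of Unc13c.

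The 3 overexpression libraries lay below the 3 control libraries for 6 of 46 genes (13.0%, against 8.07% of all tested genes) and above them for 0 of 46 (against 7.07%). These were Syp, Syn3, Napa, Rab3a, Dnm1 and Bin1. With pan-neuronal scaling 2 genes lay below all control libraries (Syp and Bin1, all tested genes 4.03%) and 3 above them (Napb, Rab3c and Rims1, all tested genes 10.4%). The shares of all tested genes moved the same way, from 8.07 to 4.03% below and from 7.07 to 10.4% above. With upper-quartile scaling 5 lay below (6.805% of all tested genes) and 2 above (Rab3c and Rims1, 8.26%). Pan-neuronal scaling moved the median of all tested genes to 0.037 and that of the 46 to -0.016, so their distance was nearly the same. Among the 12 pan-neuronal markers themselves, 4 had overexpression libraries below all control libraries (Eno2, Uchl1, Thy1 and Nefm), with 0 passing the test. With overexpression replicate 1 omitted, 17 of the 46 genes lay below all control libraries (all tested genes 15.2%). Omitting overexpression replicate 2 gave 10 (13.6%) and omitting control replicate 3 gave 11 (12.2%). Omitting overexpression replicate 3 gave 7 (11.97%), omitting control replicate 1 gave 6 (12.9%) and omitting control replicate 2 gave 8 (13.6%).

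**Figure D2:**
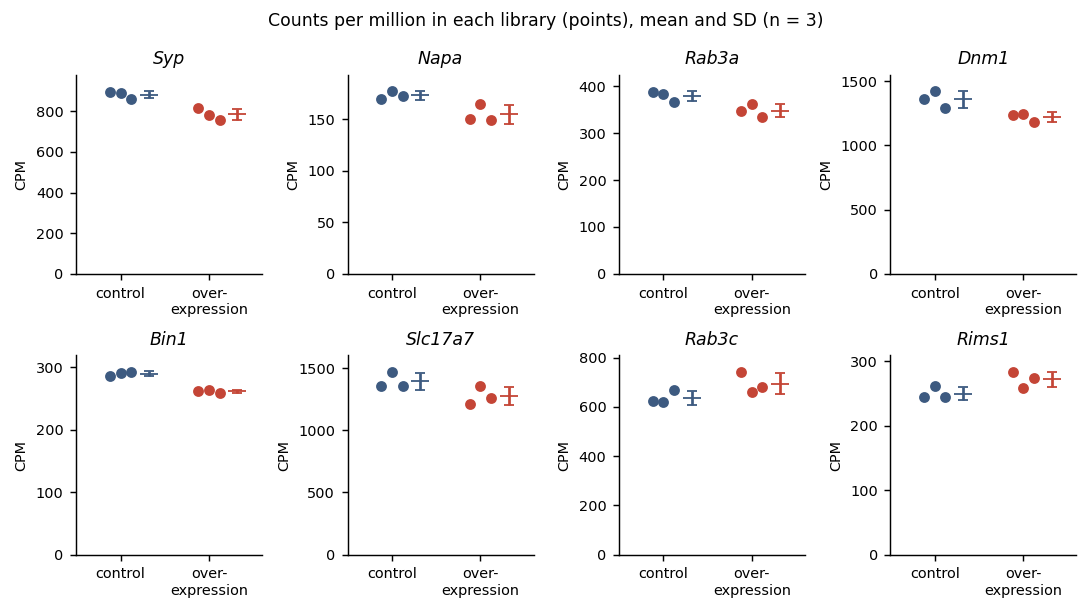
CPM (vertical axes, from 0) of 8 genes in each control and overexpression library, as points in replicate order, with the mean and SD beside them (n = 3 per group). Syp, Napa, Rab3a, Dnm1 and Bin1 have groups that do not overlap, while Slc17a7, Rab3c and Rims1 overlap in 1 or more libraries.

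Among the vesicle membrane proteins and synapsins, Syp had the smallest p of all 46 genes. Synaptophysin (ENSMUSG00000031144) spans the vesicle membrane and binds the vesicle SNARE. It was at 814, 780.4 and 759 CPM in overexpression replicates 1 to 3 and at 896, 889.7 and 860.4 CPM in control replicates 1 to 3. Every overexpression library lay below every control library. The fold was 0.890 (95% interval 0.827 to 0.957), with a log2 fold change of -0.17 ± 0.049 (SE) and an edgeR adjusted p of 0.340. The antisense gene Gm14703 shares 16.8% of the Syp exon bases, at 2.59 CPM on average, and although the library kit marks strand, per the labels' protocols, no source used here says whether the counting used it.

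Syn3, the least abundant synapsin, was at 9.37, 9.74 and 9.10 CPM in overexpression and 11.6, 10.1 and 11.1 CPM in control replicates. Its groups were apart by a narrow gap, with a fold of 0.862 (0.743 to 1.001) and an edgeR adjusted p of 0.542. Syn3 carries Timp3 within it on the opposite strand, with 14.1% of its exon bases shared and Timp3 at 77.3 CPM. The count of Syn3 over the shared bases is therefore uncertain if strand was not used. The abundant synapsins had overlapping groups: Syn1 was at 531 ± 27.3 against 567 ± 34.3 CPM and Syn2 at 795 ± 26.5 against 800.2 ± 42.7 CPM (SD, n = 3). The other vesicle proteins lay close to their controls. Syngr1, a synaptogyrin, was at 442 ± 27.3 against 459 ± 14.3 CPM and its sister Syngr3 at 113 ± 4.82 against 111 ± 1.68 CPM. Of the SV2 glycoproteins, Sv2a was at 447 ± 15.1 against 459 ± 3.66 CPM and Sv2b at 613 ± 28.5 against 607 ± 29.0 CPM. Sv2c ranged from 22.9 CPM in overexpression replicate 1 to 35.9 CPM in overexpression replicate 2. The median log2 fold change of the 9 genes was -0.039, with 6 below 1.

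The 5 calcium sensor genes had folds below 1, none past the test, and their median was -0.065 on the log2 scale. With Syt7 and Doc2a above 1, 3 of 5 were below 1 under pan-neuronal scaling (median -0.029) and after the correction for base composition described below (median -0.065). Syt1, the fast calcium sensor of most hippocampal synapses, was at 1722, 1582 and 1677 CPM in overexpression and 1643, 1870 and 1698 CPM in control replicates. Overexpression replicate 1 lay above 2 of the control libraries, and the fold was 0.956 (0.877 to 1.04). Doc2b, a high-affinity sensor linked to spontaneous release, was at 102, 121 and 101 CPM against 117, 113 and 119 CPM. Here overexpression replicate 2 exceeded all other libraries. Syt7, a slow sensor, was at 366 ± 21.6 against 372 ± 11.6 CPM and Doc2a at 6.55 ± 0.709 against 6.62 ± 0.363 CPM. Doc2a shares 39.4% of its exon bases with Ino80e on the opposite strand. Syt2, the fast sensor of subcortical and some inhibitory terminals, varied most, from 27.3 CPM in overexpression replicate 2 to 43.1 CPM in control replicate 2, with overexpression replicate 1 at 42.5 CPM. Its interval of 0.619 to 1.29 leaves room for a change in either direction.

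All 7 SNARE and complexin genes also had folds below 1, with a median of -0.069 on the log2 scale and edgeR adjusted p-values of 0.658 to 0.942. Under pan-neuronal scaling 5 of 7 did (median -0.033), and after the correction for base composition described below also 5 of 7 (median -0.023), with Stx1a and Vamp2 above 1 in both. Folds below 1 numbered 4 of 7 when overexpression replicate 3 was left out (all tested genes 49.3%), with a median of -0.044. Snap25 was the most abundant of the 46 per library, at 1846, 1854 and 1912 CPM in overexpression and 1971, 2092 and 1883 CPM in control replicates. Only overexpression replicate 3 lay above a control library. Its fold was 0.944 (0.874 to 1.02, edgeR adjusted p = 0.658). Cplx1 was at 485, 465 and 453 CPM against 482, 507 and 483 CPM. Overexpression replicate 1 lay above control replicates 1 and 3. Stx1a, the syntaxin partner of Snap25, was at 85.4 ± 8.48 against 86.9 ± 1.32 CPM. The vesicle SNARE genes stood at 786 ± 29.0 against 802 ± 16.2 CPM for Vamp2 and 117 ± 3.46 against 124 ± 4.25 CPM for Vamp1. Cplx2 was at 1380 ± 141 against 1429 ± 73.0 CPM, with its lowest library, at 1219 CPM, overexpression replicate 1. Cplx3 was low throughout, at 4.03 to 7.61 CPM over the 6 libraries.

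Of the adaptors of SNARE disassembly, Napa had a fold below 1 and Napb above 1, neither past the test. Napa, which encodes alpha-SNAP (ENSMUSG00000006024), was at 150.2, 165 and 149 CPM in overexpression and 169.6, 178 and 173 CPM in control replicates. No library of one group reached the other, and the fold was 0.893 (0.822 to 0.971, edgeR adjusted p = 0.418). Napb, the brain-enriched beta-SNAP, was at 605, 617 and 604 CPM against 572, 619 and 576 CPM, a fold of 1.03 (0.960 to 1.11). Control replicate 2 lay above all overexpression libraries for Napb. The Napb to Napa ratio of CPM was 4.03, 3.74 and 4.05 in overexpression and 3.37, 3.48 and 3.33 in control replicates, without overlap. Nsf, the ATPase they recruit, was at 1205 ± 60.2 against 1234 ± 46.3 CPM.

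Of the Rab3 and rabphilin genes, Rab3a, Rab3b and Rph3a had folds below 1 and Rab3c a fold above 1, none past the test. Rab3a, the main Rab3 of vesicles by level per length, was at 347, 363 and 335 CPM in overexpression and 388, 384 and 366 CPM in control replicates. The groups were apart by the small gap between overexpression replicate 2 and control replicate 3. Its fold was 0.918 (0.851 to 0.991) with an edgeR adjusted p of 0.488. Rab3c was at 743, 662 and 679 CPM against 623, 619 and 667 CPM. Control replicate 3 lay above overexpression replicate 2, and the fold was 1.09 (1.004 to 1.19, edgeR adjusted p = 0.518). The Rab3c to Rab3a ratio of CPM was 2.14, 1.823 and 2.02 in overexpression and 1.61, 1.61 and 1.821 in control replicates, so the groups met without crossing. This pair and the Napa and Napb pair were singled out after their values were seen, and the ratios were not tested. The ratios also computed for Slc17a7 to Slc17a6, Syn2 to Syn1, Cplx2 to Cplx1 and Vamp2 to Vamp1 overlapped between the groups. Rab3b was at 39.2 ± 7.23 against 44.9 ± 4.995 CPM, and Rph3a, the Rab3 effector rabphilin, at 239.9 ± 3.79 against 252 ± 22.2 CPM.

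Of the role groups, the 12 active zone genes had the median closest to the control level, -0.015 on the log2 scale, with 8 below 1. Single genes ran from -0.13 (Rims3) to 0.12 (Rims1). Under pan-neuronal scaling 4 of 12 were below 1 (median 0.022), and after the correction for base composition 5 of 12 (median 0.0044). In both of these settings the median of the vesicle membrane proteins and synapsins was closer to the control level (-0.0038 and -0.0032). The RIM scaffold, which links Rab3 to priming factors and calcium channels, held the 2 with the smallest p. Rims1 was at 283, 259 and 274 CPM in overexpression and 244, 261 and 245 CPM in control replicates. Overexpression replicate 2 lay below control replicate 2, and the fold was 1.09 (1.004 to 1.18, edgeR adjusted p = 0.516). Rims2 was at 109, 101.1 and 98.9 CPM against 92.0, 95.5 and 101.1 CPM, a fold of 1.07 (0.980 to 1.17). Both lay above 1, while the short family member Rims3 was at 91.2, 64.6 and 68.4 CPM against 85.1, 79.6 and 81.2 CPM. Overexpression replicate 1 was the highest of all libraries for Rims3 and the other 2 overexpression libraries the lowest. Without that library Rims3 had a log2 fold change of -0.30 and an edgeR adjusted p of 0.0657, the smallest of any of the 46 genes under any setting tried.

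The priming factors and giant scaffolds did not separate the groups. Unc13a, the main Munc13 of glutamatergic terminals, was at 434 ± 11.2 against 445 ± 4.30 CPM and Unc13b at 86.2 ± 5.80 against 87.4 ± 1.65 CPM. Unc13c spread most of the 46 genes, at 70.2 CPM in overexpression replicate 1 against 34.1 and 42.4 CPM in the other overexpression libraries and 42.2 to 55.4 CPM in control libraries. Its interval of 0.562 to 1.91 bounds little. Bassoon (Bsn) was at 843 ± 16.7 against 852 ± 39.5 CPM and piccolo (Pclo) at 451 ± 41.5 against 484 ± 37.8 CPM. The ELKS genes were at 71.8 ± 6.20 against 72.3 ± 4.11 CPM for Erc1 and 243 ± 20.5 against 236 ± 22.7 CPM for Erc2. The liprins were at 209 ± 26.6 against 211 ± 12.3 CPM for Ppfia2 and 182 ± 11.9 against 192 ± 3.002 CPM for Ppfia3.

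VGLUT1 outweighed VGLUT2 in each library. Slc17a7 was at 1212, 1358 and 1256 CPM in overexpression and 1355, 1470.0 and 1354 CPM in control replicates. Overexpression replicate 2 lay between the control libraries and the other 2 below them, with a fold of 0.916 (0.842 to 0.996, edgeR adjusted p = 0.515). Slc17a6 was at 20.4, 10.96 and 18.8 CPM against 17.3, 20.9 and 18.4 CPM. The low value of overexpression replicate 2 sets this spread, and without that library the log2 fold change was 0.053 in place of -0.18. Per length, Slc17a7 was 74.1 ± 4.04 times Slc17a6 in control libraries and 83.4 ± 35.4 times in overexpression libraries. Markers of the thalamus, where VGLUT2 dominates, had folds above 1 for 12 of 12 tested, 0 of them past the test, and their median on the log2 scale was 0.23. Their sum was 442 to 472 CPM in overexpression and 416 to 430 CPM in control libraries, and Gbx2, too low to test, was at 0 in overexpression replicate 1 and in every control library. Their part in the Slc17a6 values was not tested.

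Endocytosis was the role group whose library means did not overlap with TMM scaling, although none of its 4 genes passed the test. The mean log2 deviation of the 4 genes from the mean of all libraries was -0.053, -0.033 and -0.053 in overexpression replicates 1 to 3 and 0.022, 0.115 and 0.0011 in control replicates 1 to 3. Over all tested genes these means did not overlap either, in the other direction (0.024, 0.0043 and 0.0045 against -0.0075, -0.019 and -0.0061). For the 23 other endocytosis genes in the further pathway list below, they were also lower without overlap (-0.0012, -0.033 and -0.038 against 0.0089, 0.054 and 0.0086). Library means were not computed under pan-neuronal scaling. There 3 of the 4 genes had a fold below 1 (all tested genes 39.0%), with a median of -0.081 on the log2 scale. The groups stayed apart there for Bin1 but not for Dnm1. Dnm1, which pinches vesicles from the membrane, was at 1236, 1249 and 1179 CPM in overexpression and 1361, 1424 and 1291 CPM in control replicates. All 3 overexpression libraries lay below the lowest control library. The fold was 0.899 (0.832 to 0.972) with an edgeR adjusted p of 0.418. Bin1, amphiphysin II, which bends membranes and is made by oligodendrocytes as well as neurons, was at 262, 264 and 259 CPM against 285, 291 and 292 CPM.

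Bin1 had the smallest standard error of the 46 (0.047 on the log2 scale). Its fold was 0.904 (0.842 to 0.970, edgeR adjusted p = 0.401), and its log2 fold change stayed between -0.15 and -0.14 when each library was left out in turn. Oligodendrocyte and myelin markers were lower beside it. All 10 had folds below 1 (median -0.38 on the log2 scale), 5 of them without overlap (all tested genes 8.07%) and 0 past the test. In edgeR 8 of the 10 were lower at an unadjusted p under 0.05 (all tested genes 4.60%). The sum of the 10 was 3077 to 3631 CPM in overexpression and 3853 to 4856 CPM in control libraries. Their part in the Bin1 values was not tested. Amph, amphiphysin I of neurons, was at 252 ± 7.88 against 268 ± 17.7 CPM and Synj1, the phosphatase that strips the clathrin coat, at 725 ± 13.2 against 718 ± 52.9 CPM.

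**Figure D3:**
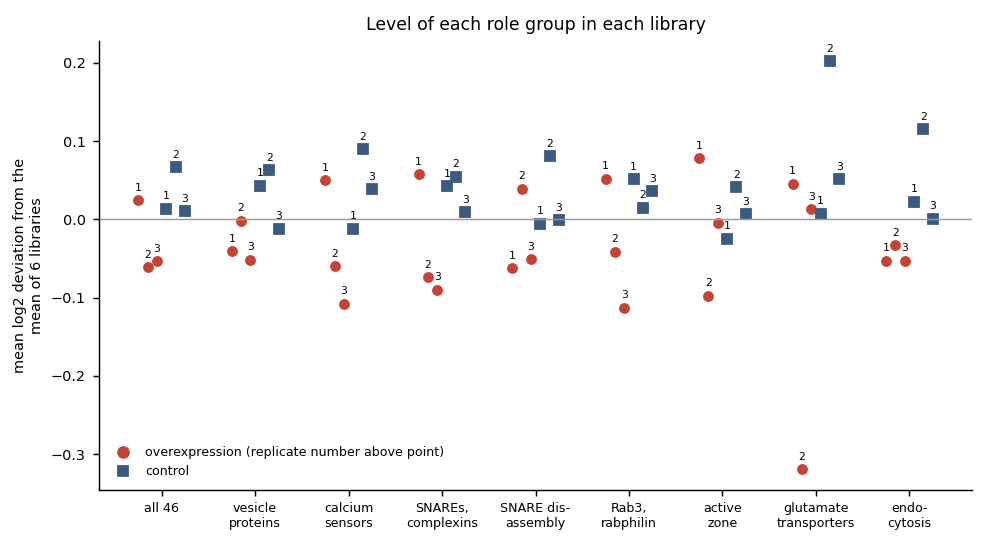
Mean log2 deviation (vertical axis) of each role group from the mean of the 6 libraries, for overexpression (circles) and control (squares) libraries with the replicate number above each point. Endocytosis is the group whose circles all lie below its squares, and overexpression replicate 1 lies among or above the controls for the calcium sensors, SNAREs, Rab3 genes, active zone and transporters.

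Libraries differed within groups by as much as between them. Over all 46 genes the mean log2 deviation was 0.025, -0.061 and -0.054 in overexpression replicates 1 to 3 and 0.014, 0.066 and 0.010 in control replicates 1 to 3. Overexpression replicate 1, the library rich in choroid plexus transcripts, thus lay above control replicates 1 and 3. Control replicate 2 was the highest library for 21 of the 46 genes and overexpression replicate 3 the lowest for 17. Overexpression replicate 1 was the highest for 13. Leaving out control replicate 2 gave a median log2 fold change of -0.037 for the 46 genes, and leaving out overexpression replicate 1 or control replicate 3 gave -0.072.

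Fold changes went with the base composition of the transcripts over all tested genes, and the members split by it too. When tested genes were split into 10 classes by the GC content of their longest annotated transcript, the median log2 fold change went from 0.075 in the class of lowest GC content to -0.050 in the highest. Of the 27 members above the median GC content of tested genes (49.3%), 26 had a fold below 1, and the median of the 27 was -0.069 on the log2 scale. Of the 19 at or under it, 10 did, and their median was -0.014. Over the 46 genes Pearson's r between the log2 fold change and GC content was -0.20 and Spearman's rho -0.19, as a description of genes measured in the same libraries. Rab3a, Napa, Dnm1, Bin1 and Slc17a7 had 54.9 to 57.4% GC, and Rab3c, Napb and Rims1 41.9 to 47.4%. Syp and Syn3, at 45.4 and 45.3%, were low in overexpression libraries against that trend.

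The GC trend in each library was then removed by robust loess, a setting chosen after the data were seen. After this 31 of the 46 genes had a fold below 1 (67.4%, against 49.7% of all tested genes). The median log2 fold change of the 46 was -0.026 against 0.0010 for all tested genes. The log2 fold change became -0.082 for Rab3a, 0.074 for Rab3c, -0.12 for Napa, -0.10 for Dnm1 and for Bin1, and -0.079 for Slc17a7. It was -0.20 for Syp (edgeR adjusted p = 0.274) and -0.15 for Snap25, which has the lowest GC content of the 46, at 38.7%. The groups then did not overlap, in the lower direction, for Syp, Syn3, Dnm1, Bin1, Snap25 and Vamp1, and no longer for Napa and Rab3a (6 of 46, against 7.18% of all tested genes). In the higher direction this held for Syngr3 (1 of 46, against 6.80%). None of the 46 passed under this setting either.

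**Figure D4:**
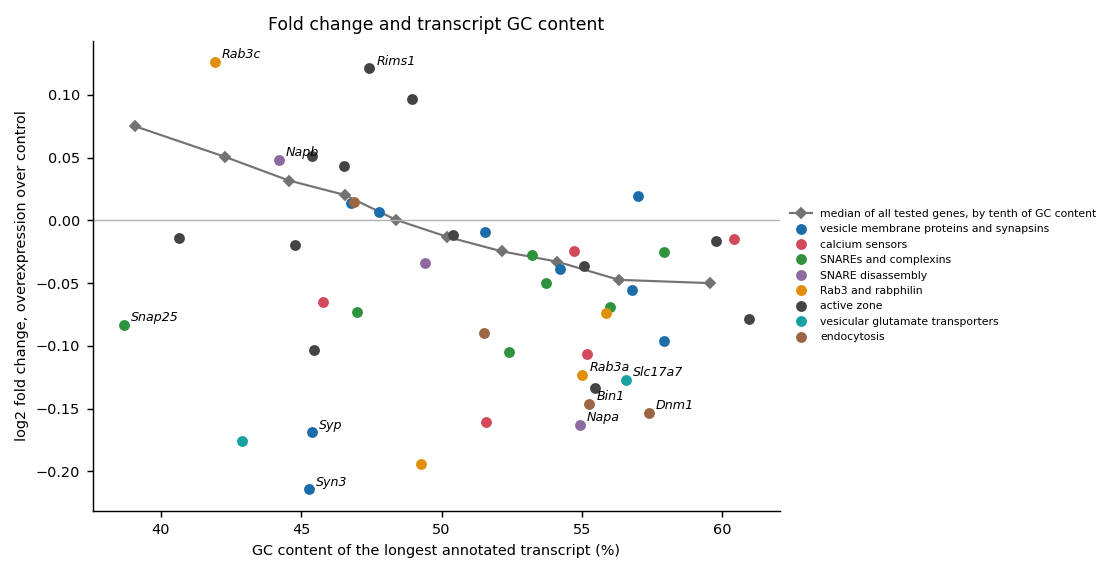
Log2 fold change (vertical axis) of the 46 genes against the GC content of the longest annotated transcript (horizontal axis, in %), coloured by role, with the median of all tested genes in each of 10 GC classes as grey diamonds. The grey line falls from 0.075 to -0.050, and Syp, Syn3 and Snap25 lie below it at low GC content.

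A further 89 genes of vesicle release and recycling were taken as a list from knowledge of the pathway, of which 87 were tested. Of these 0 passed the test in either direction, and the smallest adjusted p was 0.423. A fold below 1 was found for 58 of the 87 (all tested genes 49.6%), with a median log2 fold change of -0.0395. Their groups did not overlap for 15 genes in the lower direction (all tested genes 8.07%) and 4 in the higher (all tested genes 7.07%). The 3 with the smallest p below 1 were Syt5, a vesicle synaptotagmin, at 99.4 ± 5.997 against 112 ± 4.07 CPM, Ap2a1, a subunit of the clathrin adaptor AP-2, at 196 ± 9.86 against 217 ± 1.15 CPM, and Nsfl1c, the p97 cofactor p47, at 61.4 ± 2.51 against 68.4 ± 1.55 CPM. Above 1 they were Rab27b, a secretory Rab, at 50.4 ± 5.67 against 43.0 ± 3.16 CPM, Syt4, a synaptotagmin that binds calcium poorly, at 169.5 ± 14.7 against 152 ± 2.11 CPM, and Vamp4, a SNARE of bulk retrieval, at 81.4 ± 1.49 against 74.3 ± 1.76 CPM. These 3 higher genes had 37.9 to 44.2% GC and the 3 lower genes 51.5 to 59.3%.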

How the data were processed

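RNA of the ventral hippocampus was sequenced from 3 NEGR1 overexpression and 3 control mice, after poly(T) selection and with dUTP in the second strand, per the labels' protocols. The authors deposited raw read counts for each Ensembl gene. Per the submitters' processing notes reads were handled with featureCounts 2.0.3, STAR 2.7.10 and Trimmomatic 0.36, and the builds named are mm10 and GRCm39, without roles. No source used here gives the annotation release or says whether counting used strand, so genes with overlapping exons on opposite strands are uncertain. The table held 56941 identifiers, of which those without a symbol took 0.264 to 0.348% of the counts, and 0 columns of per-sample values were left unused.

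Counts were scaled with TMM factors (0.988 to 1.01), filtered with filterByExpr, and tested in edgeR 4.0.16 (R 4.3.3) with the robust quasi-likelihood test, group as the term, and Benjamini-Hochberg adjustment over 19354 genes with a threshold of 0.05. Standard errors and 95% intervals were derived from the same test. DESeq2 1.42.0 and limma 3.58.1 served as alternatives, beside other scalings, filters, a replicate block, a GC correction by loess and the omission of each library. A robust form of that loess was added after the ordinary form was seen to shift the median of all genes, and the counts of genes without overlap, with an unadjusted p under 0.05 or with a fold below 1 were recomputed under the alternatives after the data were seen. Transcript GC content and exon length came from GENCODE vM21, which covered 97.7% of tested genes and may not be the annotation of the counts. Scripts were tested on simulated counts.

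The members and lists were chosen with earlier results of these data known. Values of each library are given for the 2 members of each role with the smallest p (1 in a role of 2 genes) and for members whose groups do not overlap, and for others singled out by their spread. Of the other pathway genes, the 3 with the smallest p in each direction are named. The mice are separate animals per the series' design text. Libraries held 30726110 to 38108394 counts. The p-values rest on the spread between 3 mice a group and on a variance for each gene that edgeR draws toward that of all genes.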

Additional observations from a re-analysis of the deposited data

How the results depend on the processing

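Of the 46 genes, 0 had an adjusted p under 0.05 under each of the alternatives. At 0.1 there were 0 with all libraries, and 1, Rims3, without overexpression replicate 1. Their median log2 fold change stayed between -0.072 and -0.016. The number of all genes past the threshold was 9, and became 18 with scaling to pan-neuronal genes, 304 without a filter on low counts, 5 with a filter of 1 CPM in 3 libraries, 101 with DESeq2, 19 at an adjusted p under 0.1, and 2 to 63 when each library was left out in turn. The number of members with an unadjusted p under 0.05, 8, became 4 with pan-neuronal scaling and ranged from 4 to 9 with a library left out. The share of all tested genes at that p is given for the main fit only (9.24%), so these counts have no baseline. The number lower without overlap, 6, became 2 with pan-neuronal scaling (all tested genes 4.03%) and ranged from 6 to 17 with a library left out (11.97 to 15.2%), while the number higher without overlap, 0, became 3 with pan-neuronal scaling (10.4%) and 0 to 3 with a library left out (11.3 to 14.2%). The number with a fold below 1, 36 (all tested genes 49.6%), was 26 with pan-neuronal scaling (39.0%) and 31 to 39 otherwise (46.8 to 56.7%). The 39 came with the block and the GC correction, where the share of all tested genes was 56.7%. The 31 came with the robust GC correction, where it was 49.7%. The median of the vesicle membrane proteins and synapsins, -0.039, became -0.0038 with pan-neuronal scaling and -0.0032 with the robust GC correction. The median of the active zone genes, -0.015, was 0.0055 without overexpression replicate 2 and 0.010 without control replicate 2. The cause of these shifts was not tested. The sign of the fold change was the same under all 18 alternative fits for 25 of the 46 genes, 22 of them below 1. The share of all tested genes with a stable sign is not given, so this count has no baseline, and the fits draw on the same libraries.

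Same-numbered libraries deviated together by r = 0.017, 0.017 and 0.023 over all tested genes, so the numbers were not taken as pairs, although each library correlated best with its own number. With the replicate number as a block, 26 genes passed, 28 with the block and the GC correction and 30 with the block and the robust GC correction, and 0 members did. The median of the members was -0.055 with the block. With the block and the robust GC correction 4 members had an unadjusted p under 0.05, again without the share of all tested genes.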
